A study of Mus musculus with 3 samples.

Results

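Chemokines are small secreted proteins that draw leukocytes along gradients by binding G protein-coupled receptors on those cells. CC ligands such as Ccl2 and Ccl7 act on monocytes through Ccr2, CXC ligands such as Cxcl1 and Cxcl2 act on neutrophils through Cxcr2, and Cxcl12 holds and guides cells that carry Cxcr4. Atypical receptors (Ackr1 to Ackr4) bind and clear or move chemokines without the usual signalling. Several chemokines are made by macrophages, fibroblasts and endothelium of injured tissue.

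The members were taken by gene symbol alone: all Ccl, Cxcl, Ccr and Cxcr genes of numbered name, Ackr1 to Ackr4, Cx3cl1, Cx3cr1, Xcl1, Xcr1, Pf4 and Ppbp. This gave 64 genes, of which 42 encode ligands, 4 atypical receptors and 18 conventional receptors. The tendon feature table of 33696 genes held 63 of them and the ganglion table of 35980 features held 63, with 62 in both (Ccl21d stood only in the tendon table and Ccl21c only in the ganglion table).

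Droplet single-cell RNA sequencing had been run on 3 libraries from C57BL/6 mice, 1 per group. For the neurectomy library, the sural nerve (which carries sensation from the calf and outer foot) had been cut in 5 mice 1 week before 4 weeks of dorsiflexion immobilisation, which keeps the Achilles tendon stretched, and that tendon was taken. The sham library came from 5 mice with the nerve only exposed and the same 4 weeks of immobilisation, so both tendon groups were immobilised. The remaining library held 18 dorsal root ganglia (DRG, the ganglia of sensory neurons) from 6 mice, levels L4 to S1, taken 4 weeks after 5 µL of AAV-PHP.S-tdTomato had been placed in the left Achilles tendon sheath at an age of 4 weeks. The treatment label of that library names a lentivirus in place of the AAV, and the labels differ on whether ganglia of the uninjected side were included. The labels do not say how the mice of a library were combined, and no value below has a replicate. All intervals are 95% and cover counting error only, and no p-value is given.

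The libraries held 79750679 (neurectomy), 133570956 (sham) and 239515477 (DRG) unique molecular identifiers (UMIs, each marking 1 captured transcript). After filters, 21992, 25306 and 22384 barcodes were kept, with medians of 1347.5, 1338 and 3523.5 UMIs. The pools differed in sex: the 4 Y-linked genes had 33 UMIs in the neurectomy library and 6129 in the sham library, beside 54063 and 59661 of Xist, so the sex of the animals and the operation cannot be told apart. The tendon libraries shared 1001 cell barcodes, of which 569 were kept in both. Over the 1001 the deeper copy had a median of 33823 UMIs and the shallower 700, and 274 neurectomy and 299 sham shallower copies passed the filters. Each ratio of at least 2-fold is therefore also given without the shared barcodes, where enough barcodes were left. The DRG library shared 153 barcodes with the neurectomy and 189 with the sham library.

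Barcodes were placed in classes by fixed marker genes, none of which is a chemokine or receptor. The levels are UMIs of a gene divided by all UMIs of the class and given as counts per 1000000 (CPM). A class name such as tenocyte means tenocyte-like by these markers. In the neurectomy library 7866 barcodes were tenocyte-like, 352 Pi16 fibroblast-like, 213 stromal fibroblast-like, 297 synovial lining-like, 579 blood endothelial-like, 453 lymphatic endothelial-like and 839 macrophage-like. The sham library held 16045, 432, 113, 102, 363, 405 and 699 of the same classes. No class was reached by 6819 neurectomy and 3495 sham barcodes. A further 4211 and 3414 held at least 3 markers of several classes without a lead of 2, and none of these entered a class. Median depths of the macrophage class were 1816 UMIs in neurectomy and 9471 in sham. The gates for monocytes, neutrophils, T and NK cells and B cells caught under 50 tendon barcodes each over both libraries, so no tendon level is given for them. In such sums over a class, fewer cells making a transcript and less transcript per cell cannot be told apart.

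In tendon, macrophages and dendritic cells were the classes where most members were highest. Of 63 members, 50 had at least 50 UMIs over both libraries, and 3 had none (Ccl20, Ccl27b and Cxcr1). The class of highest level was macrophage for 16, dendritic for 11, stromal fibroblast for 5, blood endothelial for 4 and lymphatic endothelial for 4. Pi16 fibroblast, Schwann and mast led for 2 each, and tenocyte, mural, synovial lining and skeletal muscle for 1 each. For 9 of the 50 the leading class held under 10 UMIs of the gene, so those leads rest on few counts. These were Ccl1 in mast cells, Ccl27a and Ccl28 in Schwann cells, Cxcl5 in Pi16 fibroblasts, Ccr10 in synovial lining, Cxcr2 in stromal fibroblasts, Cxcr6 in skeletal muscle, and Ccr9 and Cxcr5 in dendritic cells.

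**Figure D1:**
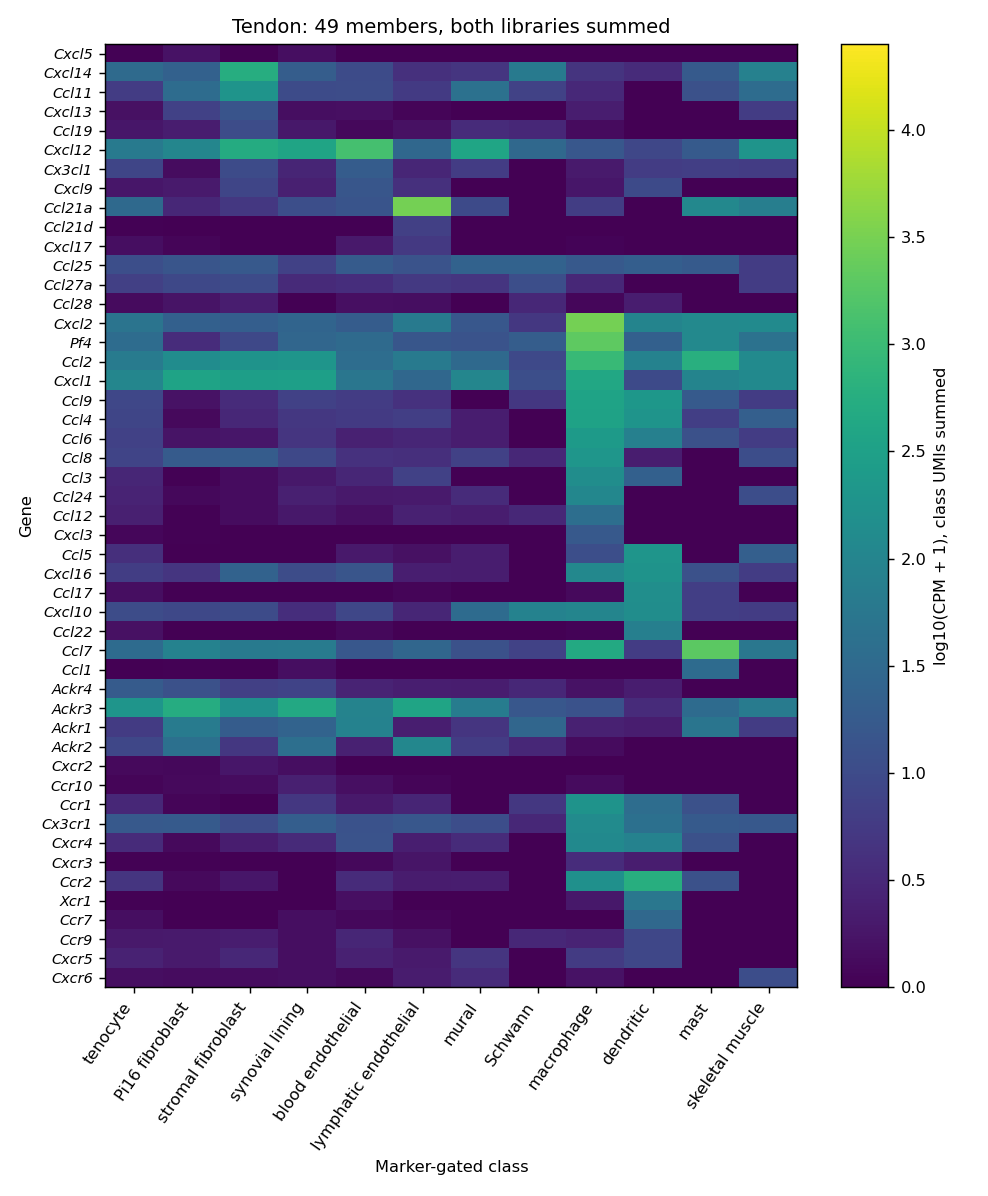
Levels of 49 chemokine and receptor genes (rows) in 12 tendon classes (columns), with the UMIs of the neurectomy and sham libraries summed; colour is log10(CPM + 1). Rows run through ligands, atypical receptors and conventional receptors, and the macrophage column is bright for Cxcl2 (3006 CPM) and Pf4 (2006 CPM), the lymphatic column for Ccl21a (3009 CPM) and the blood endothelial column for Cxcl12 (1249 CPM).

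The macrophage class led for 12 ligands and 4 receptors. Cxcl2, a neutrophil attractant, stood at 3006 CPM over both libraries, and Pf4, a CXC ligand stored in platelets and made by resident macrophages, at 2006 CPM. Ccl2 stood at 907 CPM, Cxcl1 at 433 CPM, Ccl9 at 351 CPM and Ccl4 at 349 CPM. Ccl6, Ccl8, Ccl3 and Ccl24, an eosinophil attractant, followed with 250.1, 201, 143 and 109 CPM, and Ccl12 and Cxcl3 with 38.3 and 15.7 CPM. Among receptors macrophages led for Ccr1 (179 CPM), Cx3cr1 (129 CPM), Cxcr4 (122 CPM) and Cxcr3 (2.56 CPM).

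The promoters of Cxcl1 and Cxcl2 are shown because these neighbouring genes share a known class of inducible control site and yet differed in their tendon pattern, described below. Each is the 250 bases before the start of the gene in RefSeq (GRCm38.p6), 5′ to 3′ on the strand of the gene, with matches to a kappa B motif (GGG, any 2 bases, TTTCC, on either strand) in capitals. Both promoters hold 2 matches that do not overlap, and 464 of 32851 mouse promoters of that length (1.41%) hold at least 1. Among 55 promoters of 48 member genes, 6 hold a match (Ccl20, Ccl9, Ccr3, Cxcl1, Cxcl2 and Cxcl3), which describes letters and not a bound site. The other members, Ccl2, Ccl7, Ccl11 and Ccl4 among them, had no promoter sequence at hand and were not searched for any motif.
Cxcl1, chr5:90890995-90891244, plus strand: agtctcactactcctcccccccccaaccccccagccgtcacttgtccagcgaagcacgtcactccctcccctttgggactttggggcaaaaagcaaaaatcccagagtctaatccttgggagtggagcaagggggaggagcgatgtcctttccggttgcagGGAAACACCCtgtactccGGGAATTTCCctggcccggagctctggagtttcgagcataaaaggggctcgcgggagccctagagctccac
Cxcl2, chr5:90903649-90903898, plus strand: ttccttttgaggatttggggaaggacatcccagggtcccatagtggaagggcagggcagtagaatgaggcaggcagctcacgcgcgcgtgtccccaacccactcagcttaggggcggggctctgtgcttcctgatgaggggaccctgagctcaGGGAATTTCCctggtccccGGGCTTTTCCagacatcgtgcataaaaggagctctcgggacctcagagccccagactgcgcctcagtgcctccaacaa

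Receptors of antigen-presenting cells marked the dendritic class, which held only 32 barcodes in each library. Ccr2 was at 567 CPM there and 160 CPM in macrophages. Xcr1, the receptor of cross-presenting dendritic cells, was at 53.7 CPM beside 0.92 CPM in macrophages, and Ccr7, which guides dendritic cells to lymph nodes, at 30.0 CPM. Its leading ligands were Ccl5 (197 CPM), Cxcl16 (179 CPM), Ccl17 (151 CPM), Cxcl10 (144 CPM) and Ccl22 (78.7 CPM). Ccr9 and Cxcr5 were also highest there, each at 7.49 CPM. With a looser gate (at least 2 markers and a lead of 1), 13 tendon classes kept 50 barcodes, T and NK cells among them. T and NK cells then led for Ccl5, Cxcr3, Cxcr6 and Ccr10.

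Endothelial, fibroblast and mural classes led for a further group of members. Lymphatic endothelium led for Ccl21a, the ligand of Ccr7, with 3009 CPM, for its near-identical copy Ccl21d with 5.85 CPM, for Ackr2, a scavenger of CC ligands, with 108 CPM, and for Cxcl17 with 4.35 CPM. Reads of the Ccl21 copies may be split or shared between them. At 1000 UMIs per barcode, 72.4% of neurectomy and 75.2% of sham lymphatic barcodes would hold a Ccl21a UMI, beside 4.83% and 5.28% of tenocytes, which were of lower depth (medians 1515 and 1307 UMIs against 2077 and 2030). Blood endothelium led for Cxcl12 (1249 CPM), Ackr1 (88.4 CPM), Cx3cl1, the membrane-bound ligand of Cx3cr1 (18.2 CPM), and Cxcl9 (13.9 CPM), a Cxcr3 ligand. The stromal fibroblast class led for Cxcl14 (547 CPM), Ccl11 (189 CPM), Cxcl13 (12.7 CPM) and Ccl19 (9.74 CPM), and the Pi16 class for Ackr3, a scavenger of Cxcl12 (538 CPM). Tenocytes led only for Ackr4, a scavenger of Ccl19 and Ccl21, at 17.5 CPM. Mural cells led for Ccl25 at 23.6 CPM. In mast-like barcodes, only 45 and 37 in number, Ccl7 reached 1588 CPM in neurectomy and 2350 CPM in sham, above the 536 and 424 CPM of macrophages. These barcodes had median depths of 1248 and 1031 UMIs. With at least 1000 genes or 5000 UMIs per barcode, 10 and 8 classes kept 50 barcodes. Macrophages led for Ccl7 under these filters, but so shallow a mast class can fall below 50 barcodes there and drop out of the ranking. The filters therefore do not test the mast lead.

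Cx3cr1 and Ackr1 are uncertain outside their usual cells, because in the GENCODE M21 annotation their models overlap a neighbour on the same strand (Csrnp1 and other genes, and Cadm3). Cx3cr1 lay at 14.3 CPM in sham tenocytes and 18.6 CPM in neurectomy tenocytes, where Csrnp1 was at 29.2 and 47.3 CPM. In DRG fibroblasts, counted with another feature table, Cx3cr1 was at 0.48 CPM and Csrnp1 at 91.1 CPM, whereas DRG macrophages held 90.6 CPM of Cx3cr1. Whether reads of the neighbours were counted for these genes was not tested.

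The first comparison asked which of these genes differed in level between nerve-cut and sham-operated immobilised tendon. Pairs of member and class were compared where a class had at least 100 barcodes in each library (7 classes) and the gene at least 50 UMIs over both and 10 CPM in the higher library. Of 93 such pairs, covering 32 members, 20 were at least 2-fold higher in neurectomy and 5 at least 2-fold lower. Of all genes entered by the same rule, 0.823% to 4.07% were higher and 0.464% to 1.64% lower, depending on the class. Ccl2, Ccl7 and Cxcl1 made up 11 of the 20. With each barcode scaled to its own total before averaging, 13 of the 93 pairs were higher. Fewer pairs had a value under stricter barcode filters: 7 of 76 were higher among barcodes with at least 5000 UMIs, and 13 of 76 among barcodes with Xist and no Y-linked UMI. No share of all genes is given for these alternatives.

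Tenocytes, the tendon fibroblasts, held more Ccl2, Ccl7 and Cxcl1 transcript in the neurectomy library. Ccl2 (ENSMUSG00000035385), the main monocyte attractant, stood at 126 CPM (4218 UMIs) in neurectomy and 39.9 CPM (2936 UMIs) in sham, a log2 ratio of 1.66 (interval 1.59 to 1.73). Ccl7, its neighbour on chromosome 11 and likewise a Ccr2 ligand, stood at 62.2 and 19.7 CPM, a log2 ratio of 1.66 (1.56 to 1.75). Both stayed at least 2-fold higher in 14 of 14 alternatives, with log2 ratios of 1.37 for Ccl2 and 1.66 for Ccl7 without the shared barcodes. Cxcl1 (ENSMUSG00000029380) stood at 163 and 74.8 CPM, a log2 ratio of 1.12 (1.07 to 1.18), and at 1.03 without the shared barcodes. It stayed 2-fold higher in 12 of 14 alternatives, with 0.95 without the top 5% of barcodes by UMIs and 0.79 as a mean of CPM per barcode. Cxcl2, next to Cxcl1 on chromosome 5, was not higher, at 44.2 and 50.2 CPM (log2 ratio −0.19, −0.27 to −0.10).

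Of 13 members that entered in tenocytes, 3 were at least 2-fold higher and 1 lower, where 1.16% of all 8911 genes entered were higher and 0.483% lower. The lower one was Cxcl10 (ENSMUSG00000034855), an interferon-induced ligand of Cxcr3, at 4.54 CPM in neurectomy and 11.5 CPM in sham (log2 ratio −1.34, −1.60 to −1.09). That value depended on which barcodes were kept. Of the sham Cxcl10 UMIs, 39.3% came from 1 barcode, and without the highest barcode of each library the log2 ratio was −0.69 (−0.97 to −0.42). Without the shared barcodes its sign turned, to 1.07. Neither scavenger was 2-fold apart: Ackr3 stood at 198 CPM in both libraries (log2 ratio 0.00, −0.04 to 0.04), and Ackr4 at 12.9 and 19.6 CPM (−0.61, −0.76 to −0.45). The median log2 ratio was 0.16 over the 13 members and 0.07 over all genes.

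The share of tenocytes with a UMI moved with the level. At 1000 UMIs per barcode, 10.9% of neurectomy and 5.09% of sham tenocytes would hold a Ccl2 UMI (observed without thinning, 17.9% and 9.24%). The same shares were 7.09% and 3.32% for Ccl7, 14.6% and 8.74% for Cxcl1, and 6.73% and 7.32% for Cxcl2. Pf4, a macrophage gene here, would be seen in 6.63% and 7.63% of tenocytes. Macrophages held more Pf4 than Ccl2 or Ccl7, so its share is not a like measure for them. The ratio of Ccl7 to Pf4 UMIs was 1.76 in neurectomy and 0.552 in sham tenocytes, and 0.258 and 0.216 in macrophages. For Ccl2 to Pf4 it was 3.57 and 1.12 in tenocytes, and 0.374 and 0.498 in macrophages. The ratio of Ccl2 to Cxcl2 UMIs in macrophages was 0.300 in neurectomy and 0.302 in sham, and in Pi16 fibroblasts 12.6 and 3.86. In tenocytes it was 2.85 (2.69 to 3.03) in neurectomy and 0.795 (0.757 to 0.834) in sham, and macrophage markers summed to 121 and 112 CPM in tenocytes; the part of free RNA from any class was not tested. Skeletal muscle markers summed to 102 CPM in neurectomy and 10.8 CPM in sham tenocytes, with all 8 above 0 in both, and their part in these results was not tested.

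**Figure D2:**
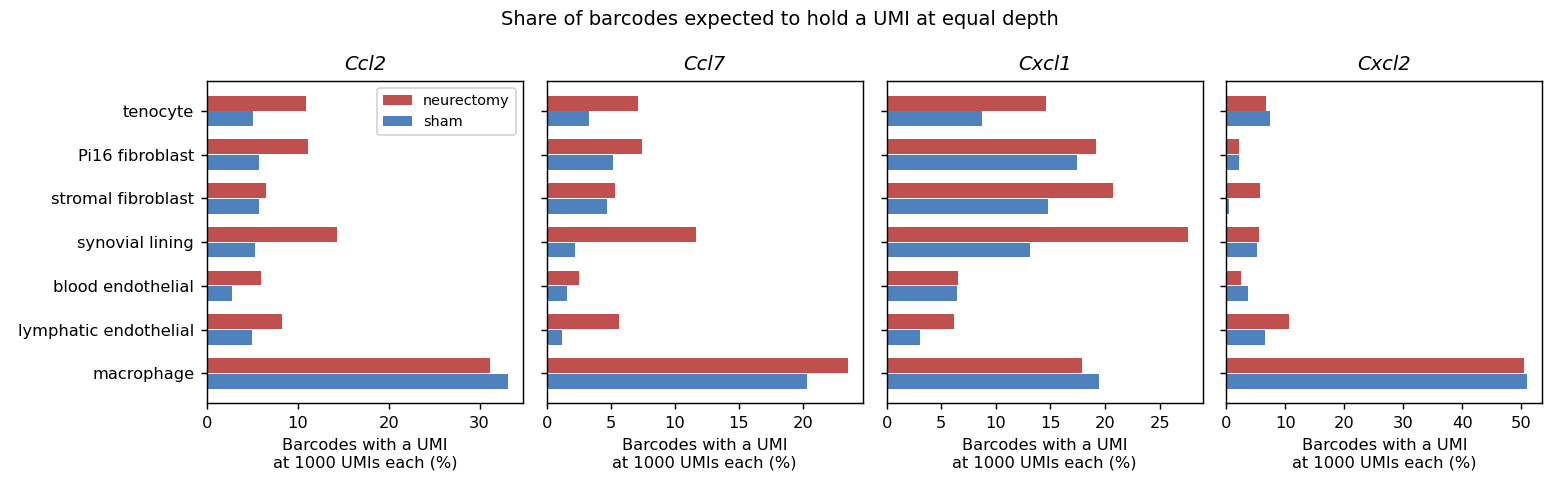
Share of barcodes (percent) expected to hold at least 1 UMI of Ccl2, Ccl7, Cxcl1 or Cxcl2 at 1000 UMIs per barcode, in 7 tendon classes of the neurectomy and sham libraries. In tenocytes the Ccl2 share was 10.9% in neurectomy and 5.09% in sham, while the Cxcl2 shares were 6.73% and 7.32%.

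Within tenocytes of at least 5000 UMIs, Ccl7 and Cxcl1 were found more often in barcodes with Ccl2 than in those without, though most barcodes with Ccl2 held no Ccl7. In neurectomy, 46.5% of 297 barcodes with Ccl2 held Ccl7, against 7.50% of those without, and in sham 22.2% of 401 against 3.51%. Cxcl1 was held by 65.7% of barcodes with Ccl2 and 23.4% of those without in neurectomy, and by 54.1% and 19.4% in sham. Barcodes with and without Ccl2 had median depths of 19206 and 14497 UMIs in neurectomy and of 15199 and 15686 in sham.

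Ccl2 was also higher in Pi16 fibroblasts and blood endothelium. In Pi16 fibroblasts it stood at 233 CPM in neurectomy and 86.9 CPM in sham (log2 ratio 1.43, 1.29 to 1.57; 1.19 without the shared barcodes, 0.75 with a looser gate and 0.85 as a mean of CPM per barcode), and Ackr4 at 3.96 and 15.8 CPM (−2.0, −2.80 to −1.28; −1.70 without the shared barcodes). These were the 2 of 14 members entered that lay at least 2-fold apart, beside 0.823% of all genes higher and 0.856% lower. Cxcl1, high in this class, did not differ by more than its counting error (358 and 349 CPM), and Ackr3 stood at 420 and 604 CPM (−0.52).

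In blood endothelium 3 of 13 members were higher and 1 lower, where 2.27% of all genes were higher and 0.464% lower. Ccl2 stood at 58.4 and 12.5 CPM (log2 ratio 2.23, 1.59 to 2.93) and Ccl7 at 19.8 and 9.35 CPM (1.08, 0.25 to 1.97). Ackr1, which carries chemokines across venules, stood at 121 and 54.5 CPM (1.15, 0.81 to 1.49), and at 0.50 among barcodes with Xist and no Y-linked UMI. Its overlapping neighbour Cadm3 was at 58.9 and 26.0 CPM. Cxcl9, an interferon-gamma-induced ligand, was lower, at 5.94 and 22.3 CPM from 12 and 43 UMIs (−1.91, −2.97 to −0.96). Cxcl12, the leading ligand of this class, stood at 1153 and 1350 CPM (−0.23). Without the shared barcodes the log2 ratios were 2.24 for Ccl2, 1.09 for Ccl7, 1.15 for Ackr1 and −1.85 for Cxcl9. With a looser gate Ccl2 was at 1.04 and Ccl7 at 0.61, and as a mean of CPM per barcode Cxcl9 was at −0.58. Markers of other cells were also higher in neurectomy: tenocyte markers summed to 948 and 549 CPM, Pi16 fibroblast markers to 193 and 104 CPM, skeletal muscle markers to 111 and 13.0 CPM and macrophage markers to 87.1 and 59.2 CPM. The 5 erythroid genes listed summed to 1942 CPM in neurectomy and 142 CPM in sham blood endothelium, and the part of all these was not tested.

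In lymphatic endothelium 4 of 11 members were at least 2-fold higher and none lower, beside 1.74% and 0.629% of all genes. Cxcl2 stood at 110 CPM in neurectomy and 30.0 CPM in sham (log2 ratio 1.87, 1.56 to 2.19), Pf4 at 23.5 and 8.12 CPM (1.53), Cxcl1 at 46.2 and 17.5 CPM (1.40) and Ccl7 at 40.8 and 18.5 CPM (1.14). Without the shared barcodes the ratios were 1.79, 1.00, 1.96 and 2.70 in that order. Among barcodes of at least 5000 UMIs Ccl7 was at 0.51, and as a mean of CPM per barcode Pf4 was at 0.76. All 4 are abundant in macrophages, whose markers summed to 145 and 87.4 CPM in this class, and tenocyte markers summed to 597 and 214 CPM. Their part was not tested. The class's own ligand, Ccl21a, stood at 3124 and 2936 CPM (0.09, 0.05 to 0.13), and the scavenger Ackr2 at 82.3 and 124 CPM (−0.59, −0.83 to −0.36). Ackr2 had a negative log2 ratio in 3 of the 3 classes it entered, by less than 2-fold in each. In Pi16 fibroblasts it did not differ by more than its counting error (−0.20, −0.47 to 0.07).

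The synovial lining and stromal classes were small. In synovial lining, 4 of 9 members were higher, beside 4.07% of all genes higher and 1.64% lower. Ccl7 stood at 119 CPM (136 UMIs) in neurectomy and 6.13 CPM (6 UMIs) in sham (log2 ratio 4.28, 3.12 to 5.75), Cxcl1 at 462 and 109 CPM (2.08), Pf4 at 40.2 and 11.2 CPM (1.84) and Ccl2 at 280.2 and 97.0 CPM (1.53). The barcode highest in Ccl2 made up 53.9% of its neurectomy UMIs and 55.8% of its sham UMIs, and the barcode highest in Cxcl1 made up 36.1% and 50.5%. Leaving out the highest barcode of each library gave log2 ratios of 1.63 for Ccl2 and 2.48 for Cxcl1. Without shared barcodes under 100 sham barcodes were left, so no value was computed for that setting. With the mean of CPM per barcode the log2 ratios were 2.69 for Ccl7, 0.95 for Cxcl1, 0.06 for Pf4 and 0.63 for Ccl2, and a looser gate gave 1.33 for Ccl7, 0.82 for Cxcl1 and 0.38 for Pf4. Macrophage markers summed to 120.5 and 40.9 CPM in this class, and their part was not tested. In stromal fibroblasts 1 of 8 members was higher and 1 lower, beside 1.4% and 1.57% of all genes. Cxcl16 stood at 35.0 and 13.3 CPM (1.39, 0.53 to 2.31; 1.30 without the shared barcodes), beside macrophage markers at 52.5 and 7.85 CPM and mural markers at 188 and 44.7 CPM in sum, whose part was not tested. Ccl2 was lower, at 76.4 and 268 CPM (−1.81), but 78.7% of its sham UMIs lay in 1 barcode, and without the highest barcode of each library the ratio was 0.14, and without the shared barcodes 0.18.

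**Figure D3:**
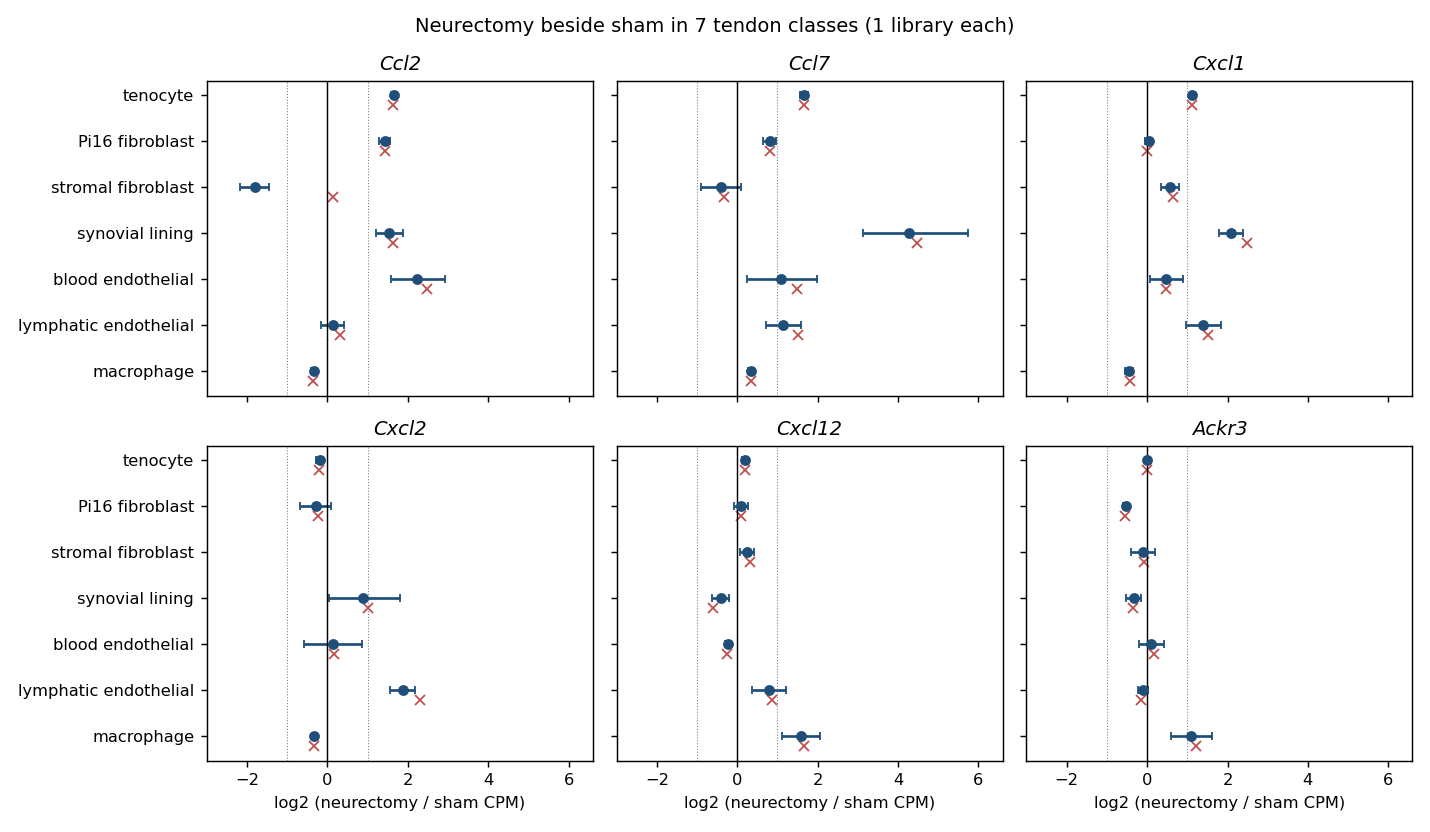
Log2 ratio of neurectomy over sham CPM for Ccl2, Ccl7, Cxcl1, Cxcl2, Cxcl12 and Ackr3 in 7 tendon classes, with 95% counting intervals (bars); red crosses leave out the barcode highest in the gene in each library, and dotted lines mark 2-fold. Ccl2 lies at 1.66 in tenocytes and 2.23 in blood endothelium, and its stromal value of −1.81 moves to 0.14 at the cross.

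In macrophages none of the 3 ligands that were higher in tenocytes was 2-fold apart; whether the classes differ was not tested. Ccl2 stood at 775 CPM in neurectomy and 979 CPM in sham (log2 ratio −0.34, −0.40 to −0.28), Cxcl1 at 351 and 479 CPM (−0.45), Cxcl2 at 2580 and 3241 CPM (−0.33) and Ccl7 at 536 and 424 CPM (0.34, 0.26 to 0.42). Of 25 members entered, 4 were at least 2-fold higher and 1 lower, beside 3.66% and 0.945% of all genes. Ccl4, a macrophage inflammatory protein, stood at 527 and 250.1 CPM (1.08, 0.98 to 1.17), while Ccl3, its neighbour, stood at 140 and 144 CPM (−0.05). Ccr2, the receptor of Ccl2 and Ccl7 that marks monocyte-derived cells, was lower, at 82.9 CPM (322 UMIs) and 202 CPM (1426 UMIs), a log2 ratio of −1.29 (−1.47 to −1.11), and at −1.37 among barcodes of at least 5000 UMIs. Without the shared barcodes the ratio was 1.14 for Ccl4 and −1.27 for Ccr2, and as a mean of CPM per barcode 0.97 and −0.87. Among the others, Ccl8 stood at 258 and 170.3 CPM (0.60), Ccl24 at 149 and 86.9 CPM (0.78) and Cx3cr1 at 99.4 and 146 CPM (−0.55).

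The other 3 higher members in macrophages lead in other classes. Ccl21a stood at 10.6 and 2.41 CPM (41 and 17 UMIs, log2 ratio 2.13), Cxcl12 at 26.0 and 8.66 CPM (1.59) and Ackr3 at 18.3 and 8.52 CPM (1.10). Without the shared barcodes the ratios were 2.13, 1.53 and 1.10. Among barcodes of at least 5000 UMIs the ratio was 0.80 for Ccl21a, 1.30 for Cxcl12 and −0.06 for Ackr3. Tenocyte markers summed to 568 and 239 CPM in macrophages, stromal fibroblast markers to 124 and 37.8 CPM, and lymphatic markers to 429 and 656 CPM, and their part was not tested.

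Genes that act around the chemokines were counted from fixed lists. Of 17 transducers of chemokine receptors, 9 entered in tenocytes and 17 in macrophages, and none was 2-fold apart in either. None of 12 NF-kappa B and transcript decay regulators was 2-fold apart in either class, with a median log2 ratio of 0.38 in tenocytes and 0.10 in macrophages, where all genes had 0.07 and −0.02. In stromal fibroblasts 1 of 12 entered was higher, in lymphatic endothelium 1 of 12 and in synovial lining 1 of 10. The shares of all genes were 1.4%, 1.74% and 4.07%. The 14 immediate early and stress genes, which rise when tissue is digested, summed to 6925 CPM in neurectomy and 6923 CPM in sham tenocytes, with none 2-fold apart. Their sums were 12730 and 10734 CPM in macrophages, 12893 and 9894 CPM in stromal fibroblasts and 8648 and 6650 CPM in synovial lining. They were 7940 and 7251 CPM in blood endothelium, 7696 and 7330 CPM in Pi16 fibroblasts and 7970 and 8002 CPM in lymphatic endothelium. In synovial lining 2 of the 14 were higher, beside 4.07% of all genes. Their part in the chemokine ratios was not tested. Of 12 cytokines and receptors known to induce chemokines, 7 entered in tenocytes with none apart. In macrophages 10 entered and 2 were higher, beside 3.66% of all genes. These were Il6 at 10.6 and 3.83 CPM (log2 ratio 1.46) and Il1r1 at 39.1 and 16.8 CPM (1.22). Tenocyte markers summed to 568 and 239 CPM in macrophages and stromal fibroblast markers to 124 and 37.8 CPM, and their part was not tested. Genes of the interferon list were lower in some classes. In tenocytes 7 of 8 entered were lower, beside 0.483% of all genes (Ifit1, Ifit3, Isg15, Oasl2, Rsad2, Irf7 and Rtp4, log2 ratios −3.76 to −1.54), and in macrophages 6 of 9, beside 0.945% (Ifit1, Ifit3, Isg15, Rsad2, Mx1 and Irf7, −3.15 to −1.23). In Pi16 fibroblasts 4 of 7 were lower and in stromal fibroblasts 3 of 5, beside 0.856% and 1.57% of all genes. In lymphatic endothelium 4 of 5 were lower, beside 0.629%. In blood endothelium none of 8 was 2-fold apart (the list summed to 314 and 332 CPM), and in synovial lining none entered (73.3 and 31.7 CPM). Of 5 erythroid genes, 3 entered in macrophages and all 3 were higher, beside 3.66% of all genes: Hba-a1 (log2 ratio 1.50), Hba-a2 (1.37) and Hbb-bs (1.11). Higher too were 4 of 4 in blood endothelium, 1 of 1 in stromal fibroblasts and 1 of 1 in synovial lining, beside 2.27%, 1.4% and 4.07%. Lymphatic endothelium went the other way, with 3 of 3 lower beside 0.629%, and a list sum of 22.7 and 94.3 CPM. None of 4 was 2-fold apart in tenocytes. Of the Y-linked genes, Ddx3y and Uty were lower in tenocytes (−6.35 and −8.10) and Uty in macrophages (−5.35).

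In the ganglia the macrophage class again led for the most members, and satellite glia and neurons led for a few. Of 63 members, 46 had at least 50 UMIs and 4 had none (Ccl19, Ccl21a, Ccl21b and Ccl21c). Macrophages led for 19, T and NK cells for 7, fibroblasts for 5, neurons and neutrophils for 4 each, blood endothelium and mural cells for 2 each, and Scn7a Schwann cells, myelinating Schwann cells and satellite glia for 1 each. For 9 of the 46 the leading class held under 10 UMIs. The ganglia have no comparison group, and tissue, animals, library and feature table differ from tendon at once, so levels of the tissues are set side by side only.

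**Figure D4:**
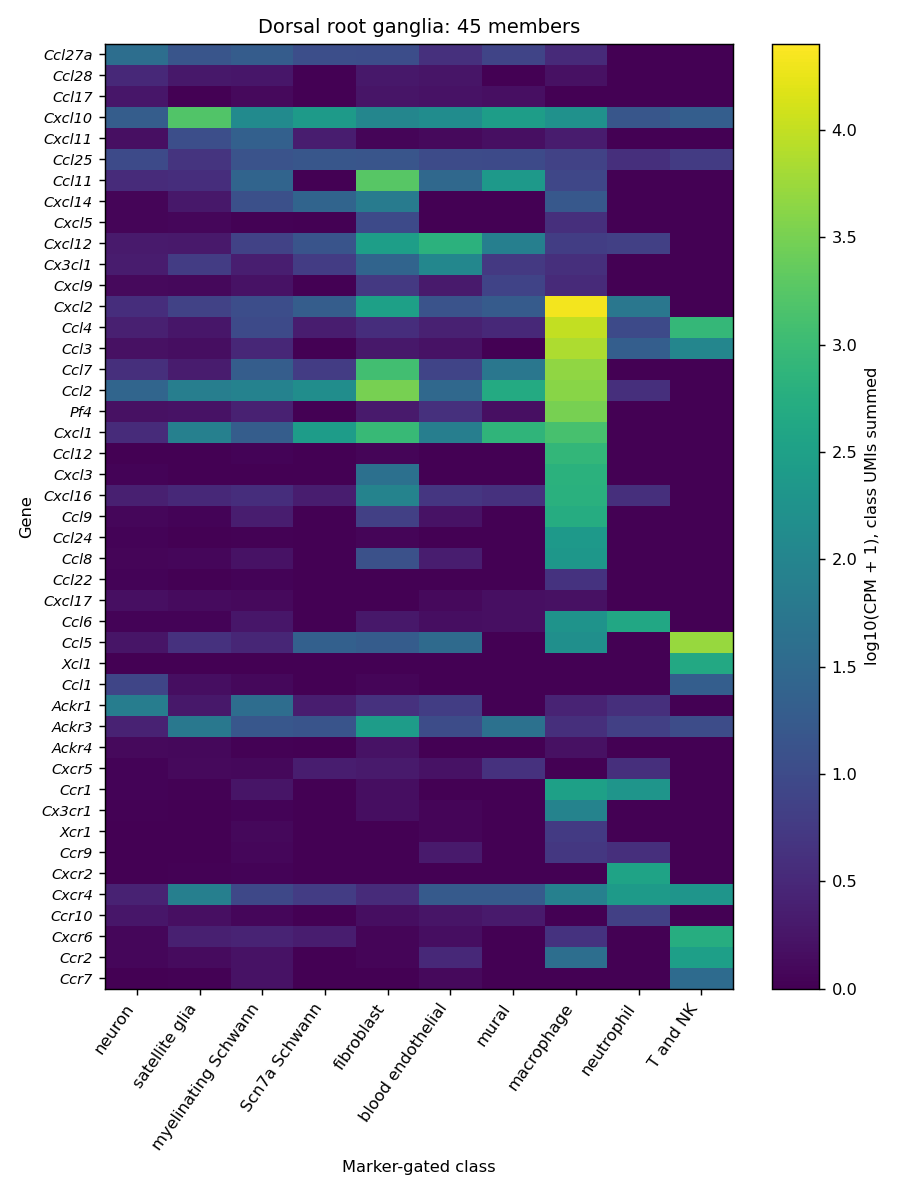
Levels of 45 chemokine and receptor genes (rows) in 10 classes of the DRG library (columns); colour is log10(CPM + 1). The macrophage column peaks at Cxcl2 (21170 CPM) and Ccl4 (10008 CPM), T and NK cells at Ccl5 (5313 CPM), fibroblasts at Ccl2 (3110 CPM) and Ccl11 (1794 CPM), and satellite glia at Cxcl10 (1621 CPM).

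DRG macrophages (452 barcodes) held Cxcl2 at 21170 CPM, with a UMI in 93.4% of barcodes, beside 0.87% of myelinating Schwann cells (median depths 3414 and 2201 UMIs). Ccl4 stood at 10008 CPM, Ccl3 at 7190 CPM, Ccl7 at 4761 CPM, Ccl2 at 4177 CPM, Pf4 at 3102 CPM and Cxcl1 at 1332 CPM. Ccl12, Cxcl3, Cxcl16, Ccl9, Ccr1, Ccl24, Ccl8 and Cx3cr1 followed between 827 and 90.6 CPM. Ccl22, Ccr9, Cxcl17 and Xcr1 also had their highest level there, from 1 to 8 UMIs each. Lymphocytes and neutrophils led for several receptors. T and NK cells (74 barcodes) led for Ccl5 (5313 CPM), Cxcr6 (545 CPM), Xcl1 (448 CPM), Ccr2 (307 CPM), Ccr7 (34.1 CPM) and Ccl1 (19.5 CPM, 4 UMIs). Neutrophils (126 barcodes) led for Ccl6 (436 CPM), Cxcr2, the receptor of Cxcl1 and Cxcl2 (351 CPM), Cxcr4 (251 CPM) and Ccr10 (2 UMIs). The dendritic, monocyte, B cell and perineurial gates caught 45, 42, 35 and 27 DRG barcodes, so no level is given for them. With the looser gate, 14 classes kept 50 barcodes. Dendritic cells then led for Ccr7, Cxcr4, Ccl17, Ccl22, Cxcl9 and Xcr1. Monocytes led for Ccr2 and Ccr9, B cells for Ccl25, Cxcl5 and Cxcr5, and perineurial cells for Ackr3.

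DRG fibroblasts (1564 barcodes) led for Ccl11, which draws eosinophils, at 1794 CPM, for Ackr3 at 274 CPM, Cxcl14 at 66.2 CPM, Cxcl5 at 8.87 CPM and Ackr4 with 4 UMIs. They also held Ccl2 at 3110 CPM and Ccl7 at 1147 CPM, and they led for Ccl2 where barcodes had at least 5000 UMIs or at most 5% mitochondrial UMIs. Among those of at least 5000 UMIs, Ccl7 was found in 72.3% of barcodes with Ccl2 and 24.7% of those without, and Ccl2 in 62.9% of barcodes with Ccl11 and 20.2% of those without. Blood endothelium led for Cxcl12 (684 CPM) and Cx3cl1 (110 CPM), mural cells for Cxcl9 (6.54 CPM) and Cxcr5 (3.27 CPM), and Scn7a Schwann cells for Ccl25 (14.0 CPM). Myelinating Schwann cells led for Cxcl11, a Cxcr3 ligand (21.4 CPM).

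Satellite glia, the cells that wrap sensory neuron bodies, led for Cxcl10. It stood at 1621 CPM (1602 to 1640), ahead of mural cells at 283 CPM, Scn7a Schwann cells at 250.3 CPM and neurons at 19.0 CPM. A Cxcl10 UMI was found in 65.5% of 3080 satellite glia at a median depth of 5322 UMIs, and in 20.4% of neurons at a median of 47570.5 UMIs. At 1000 UMIs per barcode the shares would be 44.9% and 2.25%. The Cxcl10 promoter is shown because the gene is known as interferon-induced, with 1 match to the interferon-stimulated response element (GAAA, any 2 bases, GAAA) and 1 to the AP-1 motif (TGANTCA), on either strand, in capitals, which do not overlap. Of 32851 promoters, 2.98% hold the first and 6.75% the second, and among 55 member promoters 3 and 7 do.
Cxcl10, chr5:92348890-92349139, minus strand: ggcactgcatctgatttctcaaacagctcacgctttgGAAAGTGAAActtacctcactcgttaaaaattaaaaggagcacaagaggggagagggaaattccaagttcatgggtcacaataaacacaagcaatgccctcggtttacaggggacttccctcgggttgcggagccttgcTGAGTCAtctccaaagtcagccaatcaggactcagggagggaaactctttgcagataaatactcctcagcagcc

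The interferon list did not order the DRG classes as Cxcl10 did. Its 10 genes summed to 713 CPM in satellite glia, 1718 CPM in Scn7a Schwann cells, 3591 CPM in blood endothelium and 138 CPM in neurons. Among satellite glia of at least 5000 UMIs the list summed to 791 CPM in 1356 barcodes with Cxcl10 and 575 CPM in 403 without, at median depths of 6423.5 and 6160 UMIs.

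Neurons (3410 barcodes) led for Ackr1 at 73.5 CPM, Ccl27a at 38.2 CPM, Ccl28 at 2.16 CPM and Ccl17 at 0.82 CPM. The Ccl17 lead was slight, with 0.79 CPM in fibroblasts and 0.62 CPM in blood endothelium. Other classes led for Ccl17 with a looser gate, at least 5000 UMIs or at most 5% mitochondrial UMIs. By subtype markers, 593 barcodes were Mrgprd neurons, 268 C-LTMR neurons (low-threshold touch receptors), 1283 peptidergic neurons, 148 itch neurons and 260 large neurons. Ccl1, a ligand of Ccr8, stood at 57.9 CPM (53.9 to 62.1) in C-LTMR neurons, 3.31 CPM in Mrgprd neurons, 1.16 CPM in peptidergic neurons, and 0.30 CPM in large and 0.23 CPM in itch neurons (2 UMIs each). A Ccl1 UMI was held by 85.8% of C-LTMR neurons and 3.98% of peptidergic neurons, which had similar median depths of 50920 and 46414 UMIs. The subtypes come from 1 library, so the spread between animals was not measured.

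Ccl2 was highest in peptidergic neurons, at 50.1 CPM (48.3 to 52.0), against 15.9 CPM in Mrgprd, 8.32 CPM in large, 3.99 CPM in itch and 3.72 CPM in C-LTMR neurons. It was uneven, since 4.05% of peptidergic barcodes held 50% of its UMIs and the highest held 158. Ackr1 stood at 185 CPM in large, 98.5 CPM in C-LTMR, 71.4 CPM in peptidergic, 51.7 CPM in Mrgprd and 7.62 CPM in itch neurons. Cadm3, whose model overlaps Ackr1, ran in the same order at 157, 119, 104, 57.0 and 12.6 CPM, and whether reads of 1 were counted for the other was not tested. Ccl27a varied little, from 33.3 to 40.7 CPM, and Cxcl10 lay between 5.29 and 25.9 CPM, far under satellite glia.

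**Figure D5:**
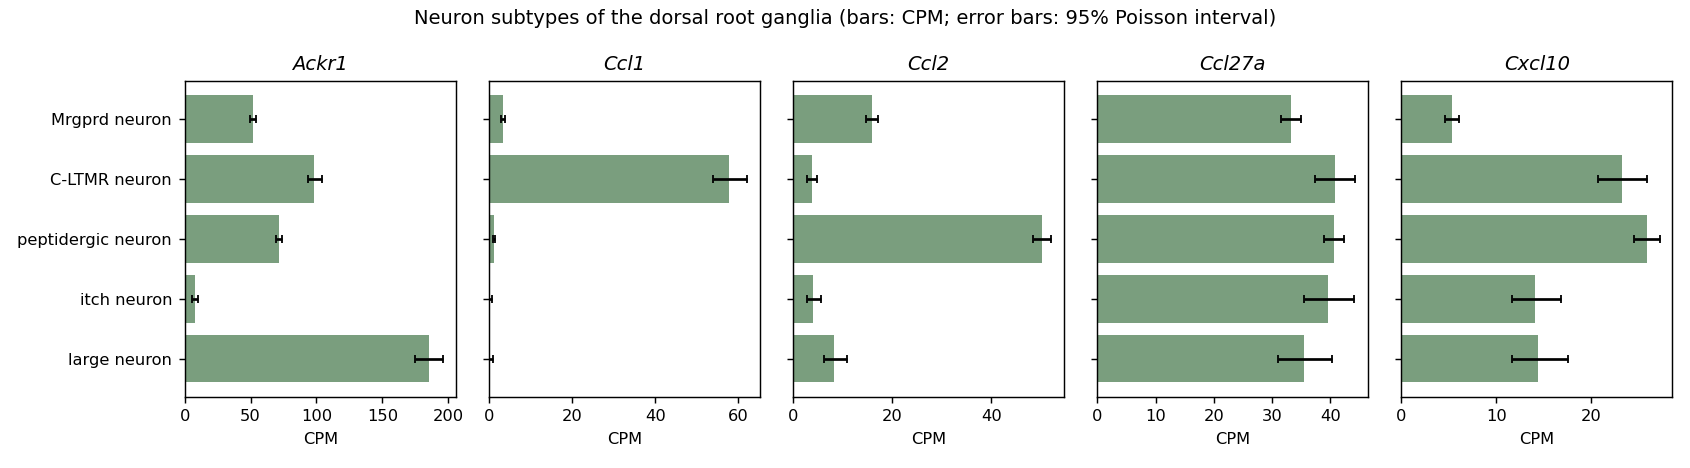
Levels (CPM) of Ackr1, Ccl1, Ccl2, Ccl27a and Cxcl10 in 5 DRG neuron subtypes, with exact Poisson 95% intervals. Ccl1 stands at 57.9 CPM in C-LTMR neurons and at most 3.31 CPM in the others, and Ccl2 at 50.1 CPM in peptidergic neurons.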

How the data were processed

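UMI counts per gene and barcode were deposited by the authors as filtered matrices of Cell Ranger 8.0.1, per the file headers; they are raw counts, not normalized. Per the submitters' processing notes both mm10 and GRCm39 were named, with no assignment to files, so no coordinates of the files are used; promoters come from RefSeq (GRCm38.p6) and gene overlaps from GENCODE M21.

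Barcodes were kept from 500 genes upward and up to 15% mitochondrial UMIs. A barcode joined a class with at least 3 of its 6 to 8 markers and a lead of 2 over any other class (neuron subtypes: 2 and a lead of 1). No doublet caller was run. Barcodes with at least 3 markers of more than 1 class and a lead under 2 entered none. A barcode with a lead of 2 could still hold markers of another class, so doublets may remain in the classes. UMIs were summed per class and divided by the class total. Intervals are exact Poisson, Clopper-Pearson and conditional, at 95%, and cover counting error only. Shares at 1000 UMIs are expected values under thinning; barcodes below that depth were left out. With 1 library per group there is no test and no spread between animals. A pair of gene and class entered with at least 50 UMIs over both libraries and 10 CPM in the higher one, in classes of at least 100 barcodes in each; levels needed 50 barcodes over the libraries of a tissue, so a single library may hold fewer. Each entering member at least 2-fold apart is named, as is each member of at least 50 UMIs with its leading class, except 1 that is counted but not reported here; list genes are named where 2-fold apart in tenocytes or macrophages. Members, markers and lists were chosen with earlier results of these data known. The calculations were tested on simulated data. Python 3.11.15, numpy 2.4.6, scipy 1.17.1, pandas 2.3.3 and matplotlib 3.10.9 were used.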

Additional observations from a re-analysis of the deposited data

Results flagged for a closer look

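The neurectomy over sham log2 ratio of Ccl2 had opposite signs in different tendon classes. It was 1.66 in tenocytes, 1.43 in Pi16 fibroblasts, 1.53 in synovial lining and 2.23 in blood endothelium, against −1.81 in stromal fibroblasts. In lymphatic endothelium it was 0.14 (−0.15 to 0.42). Macrophages also had a negative ratio, of −0.34 (−0.40 to −0.28), which lay between −0.41 and −0.08 over the alternatives. The difference was not tested, since each group is 1 library. In stromal fibroblasts 78.7% of the sham Ccl2 UMIs lay in 1 barcode, and without the highest barcode of each library the ratio was 0.14.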

How the results depend on the processing

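No paired analysis was possible because each group is 1 library, and no replicate could be left out. Against 20 pairs of member and class higher and 5 lower in neurectomy, the counts were 7 and 4 with at least 5000 UMIs per barcode, 12 and 3 with at most 5% mitochondrial UMIs, 16 and 2 without the top 5% of each class by UMIs, 13 and 3 with the mean of CPM per barcode, 13 and 3 with only barcodes holding Xist and no Y-linked UMI, and 41 and 23 with at least 10 UMIs and no CPM minimum. They were 9 and 3 at a 3-fold threshold and 29 and 10 at 1.5-fold. A looser gate gave 22 and 7, a stricter gate 16 and 5, at least 1000 genes 14 and 5, and class totals without mitochondrial, haemoglobin and muscle genes, or centring on the median gene, 20 and 5. Chosen after seeing the data, leaving out all shared barcodes gave 17 and 2, their shallower copies 16 and 5, and the highest barcode of each library 17 and 3. Of the 25 pairs at least 2-fold apart, signs turned for 3; of all 93, for 36 in at least 1 alternative. Ackr3 in macrophages was −0.056 with at least 5000 UMIs. Cxcl10 in tenocytes was 1.08 without the top 5%, 0.85 as a mean per barcode and 1.07 without shared barcodes. Ccl2 in stromal fibroblasts was 0.27, 0.12 and 0.18 under the same settings and 0.14 without the highest barcodes. Fewer pairs had a value under the barcode filters, and otherwise the cause was not tested. No share of all genes is given for the alternative settings. Small classes limit depth: the sham stromal and synovial classes held 113 and 102 barcodes.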
